A study of Mus musculus with 16 samples.

Results

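The genes described are 7 named targets of the coactivator YAP and its DNA-binding TEAD partners: Ccn1, Ccn2, Thbs1, Ankrd1, Amotl2, Lats2 and Ajuba. They were chosen by name, as the genes whose probe sets carry a single member symbol in the platform annotation. The names were listed with earlier results of these data known. Counts of members set beside shares of all genes are therefore descriptions. All 7 were on the array, each with 1 probe set, among 19938 genes compared. Expression was measured in total RNA from 16 plates of mouse embryonic fibroblasts, with 4 arrays per group. The groups were ATF5-KD cells with MG132, wild-type cells with MG132, ATF5-KD cells with vehicle and wild-type cells with vehicle. The sample titles call the cells of both vehicle groups untreated. The ATF5-KD cells, called knockdown cells here, stably expressed a short hairpin RNA (shRNA) against Atf5, a stress-related transcription factor. The wild-type cells carried a scramble shRNA and are called control cells. Exposure lasted 8 h in every group, to 1 µM MG132, a peptide aldehyde that blocks the proteasome, or to its solvent DMSO. Neither the mouse strain, the embryonic age nor the clonality of the lines was given in the sources used here. With 1 knockdown and 1 control line, an effect of the hairpin and any other difference between the lines cannot be told apart. A lower signal can mean fewer cells of a type or less RNA per cell, and these cannot be told apart in bulk RNA.

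Values are log2 probe set intensities, so a difference of 1 is a 2-fold change. The number of arrays limits their precision. Array maxima lay between 14.39 and 14.48, and arrays can understate changes near that ceiling. Knockdown cells read lower than control cells for Atf5, at -0.31 ± 0.05 (SE) with MG132 and -0.22 ± 0.05 with vehicle (limma adjusted p = 0.000148 and 0.00321). Atf5 averaged 8.53 over the 16 arrays. Markers of epithelium, a different cell type, averaged from 6.10 for Esrp1 to 8.53 for Krt8. Atf5 thus stood no higher than the brightest of these markers, and the next brightest, Cldn4, averaged 8.12. The depth of the knockdown cannot be read from such a signal and was not tested. With MG132 Atf5 rose by 0.20 ± 0.05 in control cells (limma adjusted p = 0.00759). Its difference of 0.10 ± 0.05 in knockdown cells did not pass (limma adjusted p = 0.134). The fibroblast label was checked on 10 markers: Vim averaged 14.16, Col1a2 11.61 and Pdgfrb 10.40 over the 16 arrays, while Dcn averaged 7.41 and Lum 4.75. Scores on the main gradient of variation inside the groups (37.8% of the within-group variance) correlated with the deviations of single members at r = -0.46 for Amotl2 to 0.37 for Thbs1, over 16 arrays that share 4 group means.

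YAP and its relative TAZ (gene Wwtr1) carry mechanical and contact signals into the nucleus, where they activate transcription through TEAD factors. The Hippo kinases LATS1 and LATS2 phosphorylate YAP and TAZ and keep them in the cytoplasm. In fibroblasts, spread cells on stiff substrate keep YAP active, and its targets include matrix proteins and also inhibitors of YAP itself. Ccn1 and Ccn2 encode secreted matricellular proteins of the CCN family, and Thbs1 encodes thrombospondin-1, a matrix glycoprotein that can activate latent TGF-beta. Ankrd1 encodes an ankyrin repeat protein of the muscle sarcomere and nucleus that is widely used as a readout of YAP. Amotl2 encodes an angiomotin that binds YAP, Lats2 a kinase that inhibits it, and Ajuba a LIM protein that binds and restrains LATS kinases.

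Promoter sequences are shown because TEAD factors bind the core motif GGAATG. RefSeq promoter windows of assembly GRCm38.p6 span 250 bases before a transcript start to 50 after it. Windows were matched for 5 of the 7 members, 6 windows in all, since Lats2 has a pair. Ccn2 and Thbs1 had none in the table. The windows printed are Ccn1 at chr3:145649936-145650235 (minus strand), Ankrd1 at chr19:36119795-36120094 (minus), Amotl2 at chr9:102717554-102717853 (plus), Lats2 at chr14:57746074-57746373 (minus) and Ajuba at chr14:54577612-54577911 (minus). Each is written along the strand of its gene, and capitals mark GGAATG or its reverse complement CATTCC.
Ccn1: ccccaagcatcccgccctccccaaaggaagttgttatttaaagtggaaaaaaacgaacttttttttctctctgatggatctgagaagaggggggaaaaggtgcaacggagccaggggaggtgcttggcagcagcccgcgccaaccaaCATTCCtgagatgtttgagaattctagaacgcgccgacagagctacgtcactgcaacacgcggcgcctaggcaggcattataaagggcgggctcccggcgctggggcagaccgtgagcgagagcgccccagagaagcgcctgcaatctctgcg
Ankrd1: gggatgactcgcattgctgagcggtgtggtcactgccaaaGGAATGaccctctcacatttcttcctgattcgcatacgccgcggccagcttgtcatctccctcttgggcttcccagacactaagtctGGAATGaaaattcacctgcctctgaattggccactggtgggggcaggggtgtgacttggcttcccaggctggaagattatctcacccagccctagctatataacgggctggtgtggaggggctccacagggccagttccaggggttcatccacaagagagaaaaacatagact
Amotl2: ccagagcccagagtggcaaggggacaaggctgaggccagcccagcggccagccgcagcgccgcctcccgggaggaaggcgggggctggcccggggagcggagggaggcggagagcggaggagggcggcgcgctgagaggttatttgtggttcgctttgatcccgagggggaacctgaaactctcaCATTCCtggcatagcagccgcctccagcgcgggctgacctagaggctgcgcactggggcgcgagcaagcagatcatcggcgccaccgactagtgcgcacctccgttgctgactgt
Lats2: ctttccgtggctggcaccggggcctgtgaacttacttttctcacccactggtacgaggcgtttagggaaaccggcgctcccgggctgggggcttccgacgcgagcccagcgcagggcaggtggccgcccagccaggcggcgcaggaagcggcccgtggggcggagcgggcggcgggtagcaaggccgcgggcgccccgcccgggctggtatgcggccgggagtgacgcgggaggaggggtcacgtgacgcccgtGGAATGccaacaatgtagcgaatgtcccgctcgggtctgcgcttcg
Ajuba: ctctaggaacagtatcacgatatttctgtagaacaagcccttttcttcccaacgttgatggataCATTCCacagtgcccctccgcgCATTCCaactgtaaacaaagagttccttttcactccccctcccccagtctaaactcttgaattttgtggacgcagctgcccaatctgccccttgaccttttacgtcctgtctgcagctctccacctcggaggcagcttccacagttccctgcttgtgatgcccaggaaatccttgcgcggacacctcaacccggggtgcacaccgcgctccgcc

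All 5 members with a window held the motif in at least 1 of them, with 7 matches in 5 of the 6 windows. Of all 32851 windows of this length, 14.7% held it on either strand. Ankrd1 had 2 matches on its own strand, starting 210 and 123 bases upstream of the start. Ajuba had 2 on the opposite strand, at 186 and 164 bases upstream. The single matches lay 103 bases upstream in Ccn1, 65 bases upstream in Amotl2 and 4 bases downstream of the start in Lats2. The second Lats2 window had none. The AP-1 motif TGANTCA, present in 7.81% of all windows, and the CArG box of the factor SRF, present in 1.63%, were searched on both strands and had 0 matches in these windows. With 0 matches of these motifs, overlap with the TEAD motif could not occur. These matches describe letters in the reference genome, and no binding was measured.

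**Figure D1:**
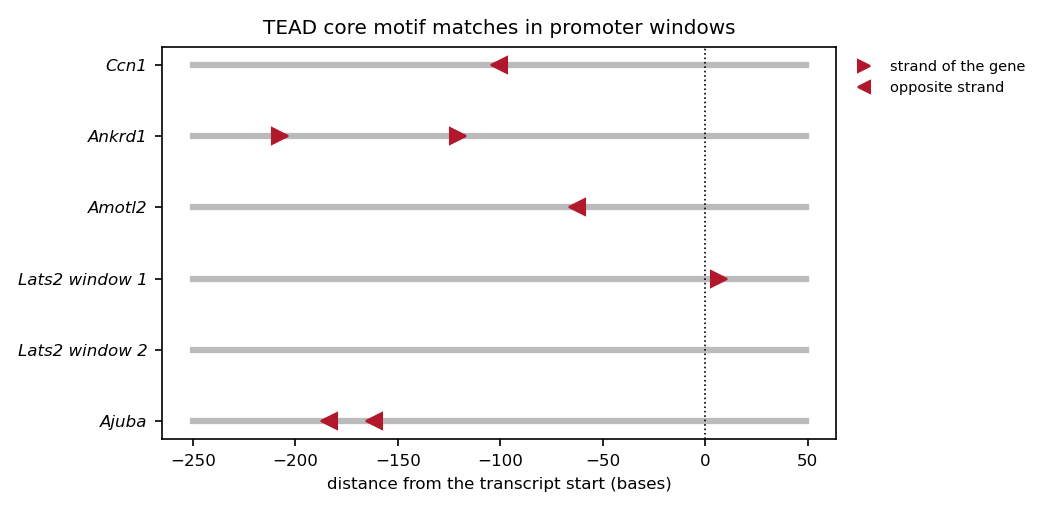
Positions of the TEAD core motif in the 6 RefSeq promoter windows of 5 members; the x axis is the distance from the transcript start in bases, and triangles point right for the strand of the gene and left for the opposite strand. Ankrd1 and Ajuba hold 2 matches each, and the second Lats2 window holds none.

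The members fell with MG132 in both lines, with Ccn1 in knockdown cells as the exception, and most fell less in knockdown cells. In knockdown cells 6 members fell and 1 rose at a limma adjusted p under 0.05, where 40.7% of all genes changed in either direction, 24.3% lower and 16.4% higher. In control cells all 7 fell, where 35.8% of all genes changed and 19% were lower. The median log2 difference of the members was -0.41 in knockdown cells and -0.68 in control cells, and that of all genes was 0.03 in both. The 2 groups compared did not overlap for any of the 7 members in either line, which held for 38.5% of all genes in knockdown cells and 32.9% in control cells. By 2-fold or more, 0 members fell in knockdown cells and 2, Thbs1 and Ankrd1, fell in control cells, where 0.426% and 0.336% of all genes did. Each of these single comparisons had an exact two-sided permutation p of 0.0286, the smallest that 4 against 4 arrays can give.

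**Figure D2:**
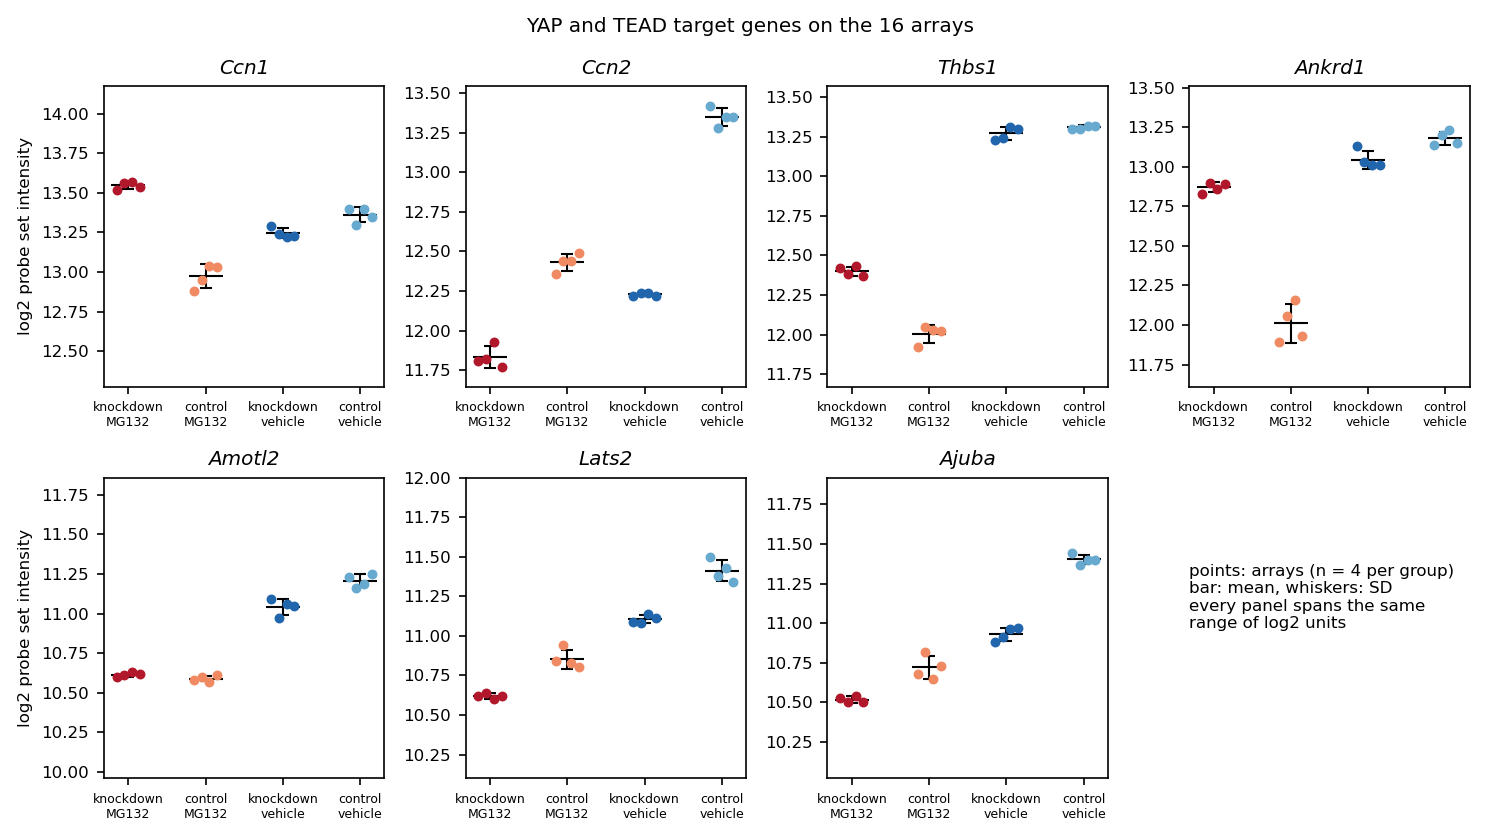
The 7 members on all 16 arrays, with the log2 probe set intensity on the y axis and the groups on the x axis; points are arrays, bars are means and whiskers are SDs (n = 4). Ccn1 stands highest in knockdown cells with MG132, between 13.52 and 13.57, while Ankrd1 stands lowest in control cells with MG132, between 11.89 and 12.16.

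Among the secreted proteins, Ccn1 moved in opposite directions in the lines. It read 13.52, 13.56, 13.57 and 13.54 in knockdown cells with MG132, against 13.29, 13.24, 13.22 and 13.23 with vehicle. It read 12.88, 12.95, 13.04 and 13.03 in control cells with MG132, against 13.40, 13.30, 13.40 and 13.35 with vehicle. All 4 knockdown arrays with MG132 thus lay above every other array, and all 4 control arrays with MG132 below every other. Ccn1 rose 1.23-fold in knockdown cells (log2 difference 0.30 ± 0.04 SE, limma adjusted p = 5.51e-06) and fell 1.31-fold in control cells (-0.39 ± 0.04, limma adjusted p = 3.6e-07). The gap between the responses came to 0.69 ± 0.05 (limma adjusted p = 5.67e-07), and 99.3% of all genes had a smaller one in size.

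Ccn2, also known as connective tissue growth factor, had the largest difference between the lines with vehicle among the members. It read 11.81, 11.82, 11.93 and 11.77 in knockdown cells with MG132, against 12.22, 12.24, 12.24 and 12.22 with vehicle. It read 12.36, 12.44, 12.44 and 12.49 in control cells with MG132, against 13.42, 13.28, 13.35 and 13.35 with vehicle. The order of the means was control with vehicle, control with MG132, knockdown with vehicle and knockdown with MG132, with no overlap between neighbours. So knockdown cells with vehicle already lay below control cells with MG132, at 12.23 ± 0.01 and 12.43 ± 0.05 (SD, n = 4 each). Ccn2 fell by 0.40 ± 0.04 on the log2 scale in knockdown cells and by 0.92 ± 0.04 in control cells (limma adjusted p = 4.3e-07 and 2.48e-11), and these responses differed by 0.52 ± 0.06 (limma adjusted p = 1.7e-05).

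Thbs1 had the largest decrease among the members in both lines. It read 12.42, 12.38, 12.43 and 12.37 in knockdown cells with MG132, against 13.23, 13.24, 13.31 and 13.30 with vehicle. It read 11.92, 12.05, 12.03 and 12.02 in control cells with MG132, against 13.30, 13.30, 13.32 and 13.32 with vehicle. The arrays of the lines overlapped with vehicle and separated with MG132. The decrease was 1.83-fold in knockdown cells (-0.87 ± 0.03, limma adjusted p = 7.39e-12) and 2.47-fold in control cells (-1.30 ± 0.03, limma adjusted p = 3.05e-14). Its log2 difference in control cells ranked 15 of 19938 genes from the lowest. The responses differed by 0.43 ± 0.05 (limma adjusted p = 1.91e-05).

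Ankrd1 showed the widest gap between the responses. It read 12.83, 12.90, 12.86 and 12.89 in knockdown cells with MG132, against 13.13, 13.03, 13.01 and 13.01 with vehicle. It read 11.89, 12.06, 12.16 and 11.93 in control cells with MG132, against 13.14, 13.20, 13.23 and 13.15 with vehicle. The decrease was 1.13-fold in knockdown cells (-0.17 ± 0.05, limma adjusted p = 0.0106) and 2.25-fold in control cells (-1.17 ± 0.05, limma adjusted p = 2.28e-11). The gap between the responses was 0.99 ± 0.07 (limma adjusted p = 2.6e-07), at rank 18 of 19938 from the highest. Markers of muscle, where Ankrd1 is abundant, were read beside it. Of 8 skeletal muscle markers 0 passed the test in the response of either line, and their summed log2 level ranged from 58.72 to 59.24 in knockdown cells with MG132, 58.38 to 60.07 in control cells with MG132, 57.9 to 59.19 in knockdown cells with vehicle and 57.83 to 59.16 in control cells with vehicle. Over all genes 40.7% passed in knockdown cells and 35.8% in control cells. Of 8 cardiac muscle markers, 1 rose and 1 fell in knockdown cells and 2 fell in control cells. None of these markers reads 0 on this scale. Their summed level ranged from 65.18 to 65.91 in knockdown cells with MG132, 65.97 to 67.73 in control cells with MG132, 64.63 to 66.51 in knockdown cells with vehicle and 67.35 to 68.03 in control cells with vehicle. Their part in the Ankrd1 values was not tested.

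The Hippo regulators among the members, Amotl2, Lats2 and Ajuba, fell in both lines. Amotl2 read 10.60, 10.61, 10.63 and 10.62 in knockdown cells with MG132, against 11.09, 10.97, 11.06 and 11.05 with vehicle. It read 10.58, 10.60, 10.57 and 10.61 in control cells with MG132, against 11.23, 11.16, 11.19 and 11.25 with vehicle. The 8 arrays with MG132 thus lay together, between 10.57 and 10.63. Amotl2 fell by 0.43 ± 0.03 in knockdown and by 0.62 ± 0.03 in control cells (limma adjusted p = 1.38e-08 and 2.02e-10), and the responses differed by 0.19 ± 0.05 (limma adjusted p = 0.00983).

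Lats2 read 10.62, 10.64, 10.60 and 10.62 in knockdown cells with MG132, against 11.09, 11.08, 11.14 and 11.11 with vehicle. It read 10.84, 10.94, 10.83 and 10.80 in control cells with MG132, against 11.50, 11.38, 11.43 and 11.34 with vehicle. All 4 groups stood apart, each knockdown group below its control group. Lats2 fell by 0.48 ± 0.04 in knockdown and by 0.56 ± 0.04 in control cells (limma adjusted p = 2.37e-08 and 4.7e-09). The gap of 0.07 ± 0.05 between the responses did not pass (limma adjusted p = 0.438, 95% interval -0.04 to 0.19).

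Ajuba read 10.53, 10.50, 10.54 and 10.50 in knockdown cells with MG132, against 10.88, 10.91, 10.96 and 10.97 with vehicle. It read 10.68, 10.82, 10.65 and 10.73 in control cells with MG132, against 11.44, 11.37, 11.40 and 11.40 with vehicle. Its groups followed the same order as those of Lats2, without overlap. Ajuba fell by 0.41 ± 0.04 in knockdown and by 0.68 ± 0.04 in control cells (limma adjusted p = 1.17e-07 and 3.37e-10), and the responses differed by 0.27 ± 0.05 (limma adjusted p = 0.00238).

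The response of knockdown cells minus that of control cells was above 0 for all 7 members and passed for 6, where 14.6% of all genes passed in either direction, 4.45% above 0 and 10.1% below. The median over the members was 0.43 and over all genes -0.01. For the members that fell in both lines the decrease was therefore the smaller one in knockdown cells, with Lats2 not past the test.

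**Figure D3:**
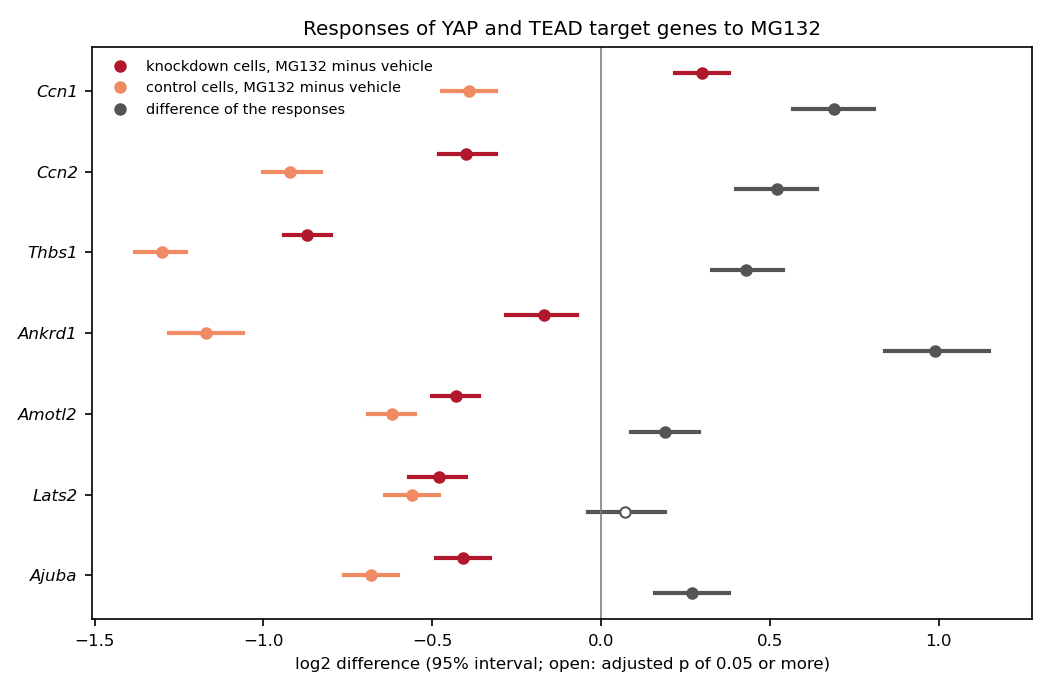
Log2 differences of the 7 members, MG132 minus vehicle, in knockdown cells and in control cells, and the difference of both responses; bars are 95% intervals and open circles mark an adjusted p of 0.05 or more. Every difference of the responses lies above 0, from 0.07 for Lats2 to 0.99 for Ankrd1.

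The next comparisons ask how the knockdown line differed from the control line under 1 treatment. They share arrays with the comparisons above. With MG132 3 members were higher and 3 lower in knockdown cells, where 38.1% of all genes differed (17.7% higher, 20.3% lower). Higher were Ankrd1 (0.86 ± 0.05, 1.82-fold), Ccn1 (0.57 ± 0.04, 1.49-fold) and Thbs1 (0.40 ± 0.03, 1.31-fold), with limma adjusted p between 4.06e-10 and 5.31e-08. Lower were Ccn2 (-0.60 ± 0.04), Lats2 (-0.23 ± 0.04) and Ajuba (-0.20 ± 0.04), with limma adjusted p between 2.19e-09 and 0.000278. Amotl2 differed by 0.03 (95% interval -0.04 to 0.09, limma adjusted p = 0.627). The median of the members was 0.03 and that of all genes -0.0025. The arrays of the lines did not overlap for the 6 members called, and 34.7% of all genes did not overlap.

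With vehicle 6 members were lower in knockdown cells and 0 were higher, where 39.4% of all genes differed, 17.9% lower and 21.5% higher. Ccn2 had the largest difference, 2.17-fold lower (-1.12 ± 0.04, limma adjusted p = 4.4e-13). It was followed by Ajuba (-0.47 ± 0.04), Lats2 (-0.31 ± 0.04) and Amotl2 (-0.17 ± 0.03), with limma adjusted p between 1.52e-08 and 0.000451. Ankrd1 (-0.14 ± 0.05) and Ccn1 (-0.12 ± 0.04) passed narrowly (limma adjusted p = 0.0447 and 0.0211). Centring each array on its median ended both calls (-0.11 and -0.10, limma adjusted p = 0.117 and 0.0907). The Ankrd1 call was also lost without any 1 of the replicates 2, 3 and 4 of control vehicle, 2, 3 and 4 of knockdown vehicle and 1 to 4 of knockdown MG132 (-0.12 to -0.14, limma adjusted p = 0.0517 to 0.119), and the Ccn1 call without replicate 1 or 3 of control vehicle or 3 or 4 of knockdown vehicle (-0.10 to -0.11, limma adjusted p = 0.0506 to 0.065). Thbs1 differed by -0.04 (95% interval -0.11 to 0.03, limma adjusted p = 0.422). The members' median was -0.17 and that of all genes -0.01, and the arrays did not overlap for the 6 called members and for 38.7% of all genes.

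**Figure D4:**
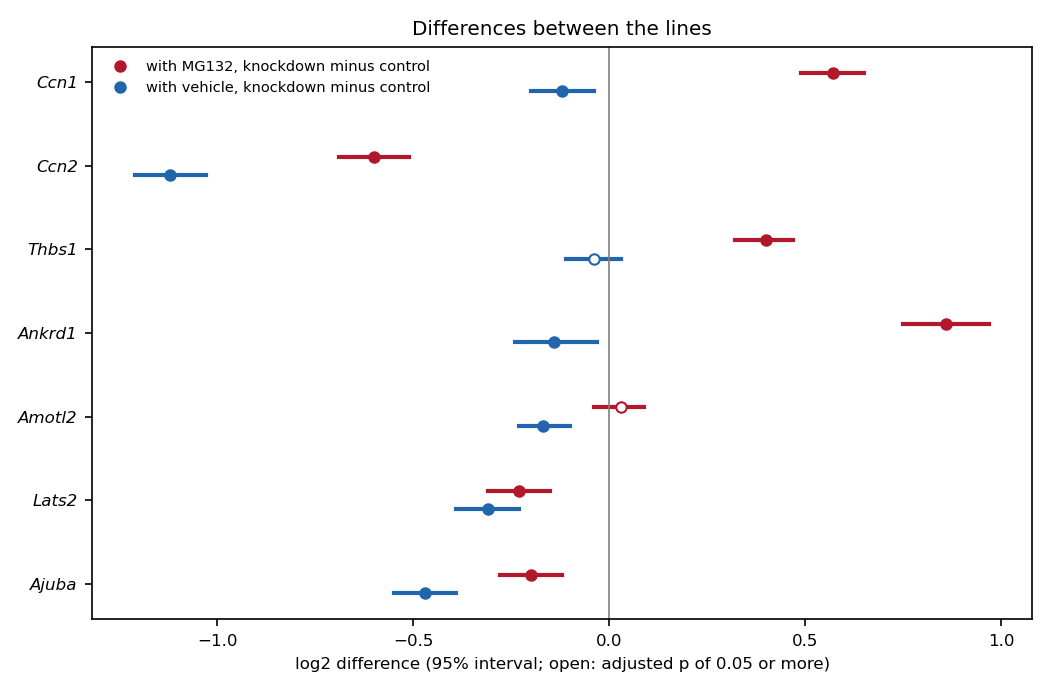
Log2 differences of the 7 members between the lines, knockdown minus control, with MG132 and with vehicle; bars are 95% intervals and open circles mark an adjusted p of 0.05 or more. Ccn2, Lats2 and Ajuba lie below 0 under both treatments, while Ankrd1 is at 0.86 with MG132 and -0.14 with vehicle.

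Markers of smooth muscle, whose contractile genes also respond to YAP and SRF, were counted beside these line differences. With MG132 0 of 8 were higher and 3 lower in knockdown cells, where 38.1% of all genes differed. With vehicle 1 was higher and 3 lower, where 39.4% of all genes differed. Their summed log2 level ranged from 70.01 to 70.49 in knockdown cells with MG132, 71.88 to 73.06 in control cells with MG132, 70.11 to 71.26 in knockdown cells with vehicle and 72.99 to 73.66 in control cells with vehicle. Most of the gap in that sum between the lines lay in 1 gene, Tagln (-1.90 ± 0.06 with MG132 and -2.06 ± 0.06 with vehicle). Acta2, the smooth muscle actin gene, was at -0.04 ± 0.03 with MG132 (limma adjusted p = 0.364) and -0.08 ± 0.03 with vehicle (limma adjusted p = 0.03). It was picked for mention after its values were seen. The 10 fibroblast markers summed to 98.71 to 99.55 in knockdown cells with MG132, 96.9 to 97.13 in control cells with MG132, 100.8 to 101.4 in knockdown cells with vehicle and 99.4 to 99.65 in control cells with vehicle. Their part in the members' values was not tested.

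Genes of the pathway itself were counted next. For comparison, 40.7% of all genes passed with MG132 in knockdown cells and 35.8% in control cells. Between the lines 38.1% of all genes differed with MG132 and 39.4% with vehicle. Of 10 genes for YAP, TAZ, TEAD factors and VGLL cofactors, 2 rose and 4 fell with MG132 in knockdown cells (median -0.05), and 2 rose and 5 fell in control cells (median -0.11). The difference of the responses passed above 0 in 2 of the 10 and below 0 in 0, where 4.45% and 10.1% of all genes did. Yap1 had log2 differences of -0.04 ± 0.04 in knockdown and -0.07 ± 0.04 in control cells, which did not pass (limma adjusted p = 0.329 and 0.131). Between the lines it was lower in knockdown cells, at -0.14 ± 0.04 with MG132 and -0.16 ± 0.04 with vehicle (limma adjusted p = 0.00527 and 0.00115). Yap1 was picked for mention after its values were seen. Wwtr1 rose by 0.26 ± 0.03 in knockdown and 0.19 ± 0.03 in control cells. Vgll3, a cofactor that binds TEAD in place of YAP, fell by 0.47 ± 0.03 in knockdown and 0.89 ± 0.03 in control cells. Its responses differed by 0.43 ± 0.05 (limma adjusted p = 2.04e-05). Tead4 had a difference of -0.05 ± 0.03 in knockdown cells (limma adjusted p = 0.203) and fell by 0.34 ± 0.03 in control cells, with a difference of the responses of 0.28 ± 0.04 (limma adjusted p = 0.000302). Between the lines 3 of the 10 were higher and 3 lower in knockdown cells with MG132, and 2 were higher and 6 lower with vehicle. Vgll4, another TEAD cofactor, was higher in knockdown cells by 0.32 ± 0.06 with MG132 and 0.51 ± 0.06 with vehicle, and Tead1 was lower with vehicle (-0.21 ± 0.04).

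Of 28 measured genes of the Hippo kinase cassette and its regulators, 6 rose and 14 fell with MG132 in knockdown cells. In control cells 7 rose and 12 fell. The medians were -0.09 and -0.02, and 40.7% and 35.8% of all genes passed. Knockdown minus control responses passed above 0 in 2 of the 28 and below 0 in 4, where 4.45% and 10.1% of all genes did. Fat4, an atypical cadherin linked to Hippo signalling, fell by 1.59 ± 0.05 in knockdown and 0.93 ± 0.05 in control cells, and here the larger decrease was in knockdown cells (difference of the responses -0.66 ± 0.07, limma adjusted p = 8.53e-06). Between the lines the counts were 9 higher and 11 lower with MG132, where 38.1% of all genes differed. They were 9 higher and 8 lower with vehicle, where 39.4% differed. Fat4 was higher in knockdown cells, by 0.65 ± 0.05 with MG132 and 1.31 ± 0.05 with vehicle.

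Of 29 other measured genes named as YAP and TAZ targets, 4 rose and 17 fell with MG132 in knockdown cells. In control cells 3 rose and 17 fell. The median was -0.20 in both, and 40.7% and 35.8% of all genes passed. Gadd45a, a stress-induced growth arrest gene, rose most in both lines (2.35 ± 0.03 in knockdown and 2.20 ± 0.03 in control cells). Edn1, the precursor of endothelin-1, fell by 0.28 ± 0.04 in knockdown and 2.15 ± 0.04 in control cells. Ccnd1, encoding cyclin D1, fell by 0.63 ± 0.03 in knockdown and 1.03 ± 0.03 in control cells, and Inhba, an activin subunit, had log2 differences of -0.45 ± 0.03 in knockdown and -1.03 ± 0.03 in control cells. For the difference of the responses 14.6% of all genes passed, 4.45% above 0 and 10.1% below. The knockdown response minus the control response passed in 11 of the 29 above 0 and in 2 below 0, with a median of 0.06. It was 1.87 ± 0.06 for Edn1, 0.58 ± 0.05 for Inhba and 0.40 ± 0.05 for Ccnd1 (limma adjusted p = 7.55e-12 to 2.13e-05). The genes that passed below 0 were Fgf2 (-0.54 ± 0.06) and Nt5e (-0.48 ± 0.06), with limma adjusted p = 3.04e-05 and 8.96e-05. Between the lines 15 were higher and 6 lower in knockdown cells with MG132, where 38.1% of all genes differed. Nt5e (-1.12 ± 0.04), F3 (1.14 ± 0.05), Fgf2 (-0.85 ± 0.04) and Edn1 (0.77 ± 0.04) had the smallest p with MG132. With vehicle 9 were higher and 12 lower, where 39.4% differed.

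**Figure D5:**
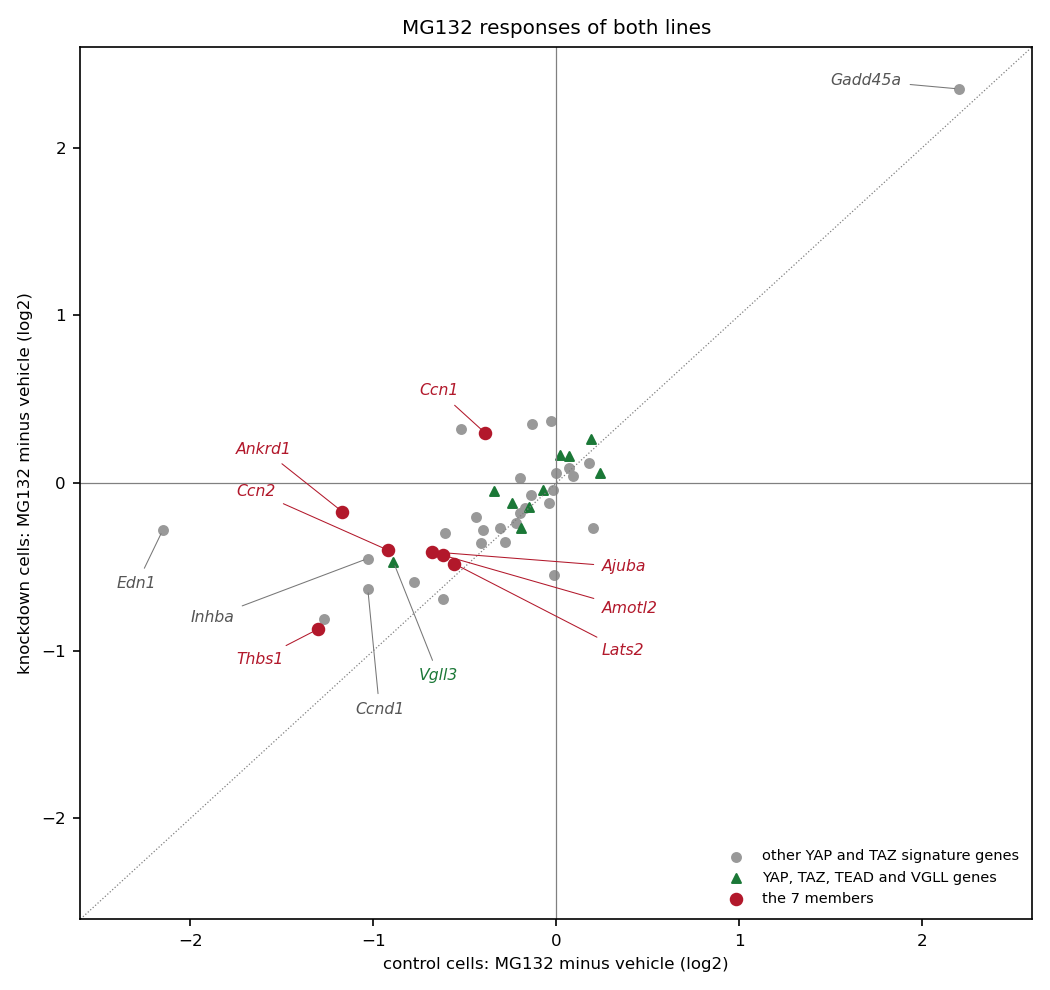
Log2 differences, MG132 minus vehicle, in knockdown cells (y axis) and control cells (x axis) for the 7 members, 29 other YAP and TAZ signature genes and 10 genes for YAP, TAZ, TEAD and VGLL proteins; the dotted line marks equal responses. All 7 members lie left of 0 and above the dotted line, Ccn1 above 0 on the y axis, and Gadd45a stands at 2.35 and 2.20.

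Close paralogs of the members did not share 1 pattern. Amot, Amotl1, Lats1, Limd1 and Wtip among them, 5 genes, were also counted with the Hippo regulators above. Of 15, 4 rose and 4 fell with MG132 in knockdown cells, where 40.7% of all genes passed. In control cells 3 rose and 4 fell, where 35.8% passed. Paralogs with a difference of the responses that passed numbered 1 above 0 and 3 below, where 4.45% and 10.1% of all genes passed. Ccn4, a further CCN family gene, rose by 0.22 ± 0.04 in knockdown cells and fell by 0.46 ± 0.04 in control cells, and its responses differed by 0.69 ± 0.05 (limma adjusted p = 3.14e-07). Ccn1 had the same signs and the same value of that difference. Thbs2, by contrast, fell by 0.60 ± 0.08 in knockdown cells and had a log2 difference of 0.10 ± 0.08 in control cells (limma adjusted p = 0.436), so that its responses differed by -0.69 ± 0.12 (limma adjusted p = 0.000955). Between the lines Thbs2 was higher in knockdown cells, by 1.67 ± 0.08 with MG132 and 2.37 ± 0.08 with vehicle, and Ccn3 by 1.44 ± 0.06 with MG132 and 1.46 ± 0.06 with vehicle. Lats1 fell by 0.12 ± 0.03 in knockdown and 0.10 ± 0.03 in control cells, against 0.48 and 0.56 for Lats2. Amotl1 rose by 0.26 ± 0.03 in both lines, while Amotl2 fell.

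Targets of SRF and its MRTF coactivators, whose targets overlap those of YAP, were set beside the members. Of 21 measured, 3 rose and 12 fell with MG132 in knockdown cells, where 40.7% of all genes passed. In control cells 2 rose and 14 fell, where 35.8% passed. The medians were -0.10 in knockdown and -0.16 in control cells. As for the other YAP and TAZ targets, more genes passed above 0 than below for the difference of the responses. The counts were 6 and 2 of 21, where 4.45% and 10.1% of all genes passed. Srf itself had a difference of the responses of 0.35 ± 0.07 (limma adjusted p = 0.00148), with log2 differences of -0.24 ± 0.05 in knockdown and -0.60 ± 0.05 in control cells. Egr1, an immediate early factor, fell more in knockdown cells, by 2.25 ± 0.05, than in control cells, by 1.42 ± 0.05 (difference -0.83 ± 0.07, limma adjusted p = 9.94e-07). Between the lines 10 were higher and 6 lower with MG132, where 38.1% of all genes differed. With vehicle 7 were higher and 8 lower, where 39.4% differed. Tagln, a contractile gene, was lower in knockdown cells by log2 differences of -1.90 ± 0.06 with MG132 and -2.06 ± 0.06 with vehicle. Myl9 of the same list went the other way, higher in knockdown cells by 1.28 ± 0.05 with MG132 and 0.99 ± 0.05 with vehicle.

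The genes whose values ran closest to each member over the 16 arrays differed between members. The measure was Pearson r over 16 arrays, which the 4 group means dominate, so r is a description and has no p. Ccn1 was closest to Msmo1 (r = 0.921), Has2 (0.915) and Klf7 (0.911), and Ccn2 to Dusp6 (0.993), Unc5b (0.992) and Tgfb3 (0.991). Thbs1 was closest to Ccnd1 (0.993), Gramd4 (0.991) and Syde1 (0.991), and Ankrd1 to Ehbp1l1 (0.98), F2r (0.968) and Fhl3 (0.965). Amotl2 ran with Tfrc (0.991), Nr1d1 (0.991) and Nup37 (0.989), Lats2 with Il1rap (0.99), Fam20c (0.989) and E2f8 (0.987), and Ajuba with Adgra2 (0.993), Lrrc8c (0.99) and Zcchc24 (0.988). The most opposite genes were Myl4 for Ccn1 (-0.926), Hspa4l for Ccn2 (-0.996), Dnajb1 for Thbs1 (-0.994), Mfsd11 for Ankrd1 (-0.965), Scpep1 for Amotl2 (-0.995), Cars for Lats2 (-0.988) and Cxcl10 for Ajuba (-0.989). Among the members, Lats2 and Ajuba were most alike (r = 0.98), and Ccn1 and Ccn2 had r = -0.15.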

How the data were processed

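Total RNA of 16 plates, 4 per group, was labelled and hybridised to Affymetrix whole-transcript arrays, per the labels. The deposited values are log2 probe set intensities with 2 decimals. The submitters' processing notes name RMA and Partek. Neither their versions nor the RMA settings were given in the sources used here. RMA makes arrays alike in distribution, which can remove a shift common to most genes. Groups and replicate numbers come from the sample titles. The labels name separate plates, not separate cultures, so p-values measure only how these samples spread, possibly a technical spread.

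Of 35556 probe sets 21789 carried 1 gene symbol, of which 21698 matched RefSeq (GRCm38.p6) by gene ID. The probe set with the highest mean was used for 999 genes with several, leaving 19938 genes. Each member had 1. No filter on dim signal was applied and no detection calls were used.

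The model held 1 mean per group over 16 arrays (limma 3.58.1 under R 4.3.3, functions lmFit and eBayes), with Benjamini-Hochberg adjustment over all genes in each of 5 comparisons and a threshold of 0.05. Values after ± are standard errors unless SD is written. Single members were also compared by an exact permutation test over arrays. Members and gene lists were chosen with earlier results of these data known. Named genes are the members, up to 4 genes per list and comparison by smallest p, and the 3 genes most like and most unlike each member over the arrays. Once named, a gene's values under other comparisons are also given. Alternatives were another normalization or centring, filter, probe set rule, prior, array weights, only the groups compared, the replicate block, the within-group gradient as a covariate and leaving out arrays. Figures were made with matplotlib 3.10.9 (Python 3.11.15).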

Additional observations from a re-analysis of the deposited data

Results flagged for a closer look

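In groups of 4 arrays, 1 array stood apart from the other 3 in 5 of the 124 groups examined (31 genes: the members, Atf5 and a selection of the pathway genes), where chance marks about 1 in 20. Among the members this was Ankrd1 in knockdown cells with vehicle, where 1 array read 13.13 and the others 13.01 to 13.03. Without it the Ankrd1 difference between the lines with vehicle was -0.16 (limma adjusted p = 0.0214). The others were Vgll3 at 10.66 in control cells with MG132 and Vgll4 at 10.89 in knockdown cells with vehicle. In control cells with vehicle they were Lats1 at 11.81 and Amotl1 at 10.57. The other 3 Lats1 arrays all read 11.80, so this flag rests on the last decimal of the deposited values.

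The MG132 responses of the lines differed by the interaction term of the fit, knockdown minus control, for 6 members: Ankrd1 (0.99), Ccn1 (0.69), Ccn2 (0.52), Thbs1 (0.43), Ajuba (0.27) and Amotl2 (0.19). Among the other genes of the selection above, the difference was above 0 for Edn1 (1.87), Ccn4 (0.69), Inhba (0.58), Tgfb3 (0.49) and Vgll3 (0.43). The same held for Ccnd1 (0.40), Srf (0.35), Tead4 (0.28), Itga6 (0.19) and Gadd45a (0.16). It was below 0 for Egr1 (-0.83), Thbs2 (-0.69) and Fat4 (-0.66). The selection is only part of the lists, so its split of signs does not describe them. Outside it, genes passed below 0, among them Id3 (-0.85), Fgf2 (-0.54) and Btrc (-0.36). Others passed above 0, among them Ccdc80 (0.84), Tgif1 (0.54) and F3 (0.49).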

How the results depend on the processing

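No alternative turned the direction of a member in any of the 5 comparisons. Apart from Ankrd1 and Ccn1 between the lines with vehicle, every call and every missed call of a member held under every alternative run. Of 413 values of single members under alternatives that keep all arrays or leave out 4, 408 kept their side of the threshold and 5 lost it. Of 560 values with 1 array left out, 546 kept it and 14 lost it. All 19 losses were in Ankrd1 and Ccn1 between the lines with vehicle. There 6 members passed, and 4 to 6 passed with 1 array left out, with 4 passing without control vehicle 3, knockdown vehicle 3 or knockdown vehicle 4. It was 4 with median centring, and 5 with all probe sets, with the replicate block and without control vehicle 1 and 4, knockdown vehicle 1 and control MG132 4. The replicate block ended the Ankrd1 call (-0.14, limma adjusted p = 0.0507) and no other member's. Whether the replicate numbers pair arrays was not settled. Deviations of same-numbered arrays correlated at -0.501 to 0.396 (median 0.0867), with 10 of 24 pairs over 0.1. Those of different-numbered arrays correlated at -0.511 to 0.603 (median -0.045), with 21 of 72 pairs over 0.1. In the other comparisons the count of members called was the same under every alternative run (7, 7, 6 and 6). Median centring changed the share of higher calls among all genes, with 1833 higher and 5795 lower against 3276 and 4848 in the knockdown response, and 2150 and 4624 against 3341 and 3796 in the control response. Repeated quantile normalization gave 1343 above and 1562 below 0, against 888 and 2015, for the difference of the responses. With 1 array left out the genes called numbered 7168 to 9396 in the knockdown response, 6368 to 7281 in the control response, 7056 to 7757 between the lines with MG132, 7303 to 8143 with vehicle and 2325 to 3387 for the difference. Fitting only the groups compared was not run for the difference of the responses, which needs all 4 groups. Dim signal limits no member, and bright signal may compress Ccn1, Ccn2, Thbs1 and Ankrd1.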

Other observations

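Genes of TGF-beta signalling, which thrombospondin-1 can activate and which shares targets with YAP, were counted in the same way. Tgfb2 among them was also counted with the other YAP and TAZ targets. Of 22 measured, 4 rose, 12 fell and 6 did not pass with MG132 in knockdown cells, where 40.7% of all genes passed. In control cells 4 rose, 13 fell and 5 did not pass, where 35.8% of all genes passed. The medians were -0.17 in knockdown and -0.16 in control cells. The difference of the responses passed above 0 in 6 of the 22 and below 0 in 6, where 4.45% and 10.1% of all genes did. Between the lines 9 were higher and 7 lower in knockdown cells with MG132, where 38.1% of all genes differed. With vehicle 9 were higher and 9 lower, where 39.4% of all genes differed. Tgfb3, a TGF-beta ligand, fell by 0.72 ± 0.05 in knockdown and by 1.22 ± 0.05 in control cells on the log2 scale, and was lower in knockdown cells with MG132 (-1.01 ± 0.05) and with vehicle (-1.50 ± 0.05). Tgfb3 was among the 3 genes closest to Ccn2 over the arrays. Id3 and Id2, with the smallest p in knockdown cells, had MG132 responses of -1.38 ± 0.06 and -0.84 ± 0.05 there. The difference of the responses was -0.85 ± 0.08 for Id3 and 0.54 ± 0.05 for Tgif1 (limma adjusted p = 3.29e-06 and 2.94e-06). Ltbp2 of the same list was higher in knockdown cells, by 1.63 ± 0.07 with MG132 and 1.48 ± 0.07 with vehicle.

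Of 13 receptors of CCN proteins and thrombospondin-1, 1 rose and 5 fell with MG132 in each line. Their medians were -0.03 in knockdown and -0.07 in control cells, where 40.7% and 35.8% of all genes passed. Receptors with a difference of the responses that passed numbered 1 above 0 and 1 below, where 4.45% and 10.1% of all genes passed. The integrin subunit gene Itga6 fell by 0.50 ± 0.04 in knockdown and 0.69 ± 0.04 in control cells, and Itgb5, another integrin subunit gene, by 0.29 ± 0.04 and 0.32 ± 0.04. Between the lines 7 receptors were higher and 1 lower in knockdown cells with MG132, where 38.1% of all genes differed. With vehicle 5 were higher and 2 lower, where 39.4% differed. Itgb5 was higher by 0.62 ± 0.04 with MG132 and 0.59 ± 0.04 with vehicle, while Itga6 was lower (-0.59 ± 0.04 and -0.78 ± 0.04).

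Within the groups, deviations from the group mean ran most alike for Ccn1 and Ccn2 (r = 0.65), Lats2 and Ajuba (r = 0.61) and Thbs1 and Ajuba (r = 0.60). These are descriptions over 16 arrays whose values come from the same hybridisations.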
